A study of Mus musculus with 4 samples.

Results

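NF-κB is a family of transcription factors that is held in the cytoplasm by inhibitors of the IκB family and set free when T cells are stimulated through the antigen receptor, co-stimulatory receptors or cytokine receptors. Several of its target genes encode its own subunits and inhibitors, so that the pathway writes its own negative feedback. In CD8+ T cells it is known for roles in activation, survival and the response to co-stimulation.

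Here 10 NF-κB genes were followed through sorted T cells of the tumor-draining lymph node (TdLN). They were chosen by gene symbol from the 32285 genes counted in each of the 4 libraries, with no cut-off on a measured value. The factors were Rel (c-Rel), Rela, Relb, Nfkb1 and Nfkb2, and the inhibitors were Nfkbia (IκBα), Nfkbie (IκBε), the nuclear IκB proteins Nfkbid and Bcl3, and the ubiquitin-editing enzyme Tnfaip3 (A20). The list was drawn up with earlier differences between treatments in these same libraries known, so the number of its genes past a threshold is a description and no independent evidence. All 10 genes passed the filter on low counts between treatments.

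The cells were CD8+ PD-1+ CD44+ T cells from female C57BL/6 mice that carried B16F10GP melanomas in the flank. By the study's methods, naïve cells (CD8+ CD44- CD62L+) of untreated mice were sorted too, as controls. Whether the Control library holds any of them was not tested. B16F10GP is the B16F10 melanoma line transduced with a lentiviral vector to express the glycoprotein of lymphocytic choriomeningitis virus as a model tumor antigen. The 4 groups were RT + αPD-L1 (radiotherapy of the tumor and an antibody blocking PD-L1), RT (radiotherapy alone), αPD-L1 (the antibody alone) and Control (untreated), with treated mice taken 7 days after treatment. Each group was 1 droplet library in which 5 mice were pooled after hashtag labelling, so a difference between treatments and one between libraries cannot be told apart. Mice told apart by hashtag were the replicates, and a mouse with a given number in one group has no partner in another.

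The comparisons used 37602 cells in 12 T cell clusters, after 1587 cells of γδ T cell, dendritic and B marker clusters had been set aside. The mice differed widely in depth, with between 131 cells and 1135955 UMIs (RT mouse 4) and 4632 cells and 37890180 UMIs (RT + αPD-L1 mouse 3), and a UMI is 1 counted RNA molecule. In the compared cells Cd8a, which encodes a chain of the co-receptor that the sort used, lay between 601.5 and 886.6 CPM (counts scaled to the UMI total of a mouse's compared cells) in every mouse, whereas Cd4 did not exceed 1.63 CPM. Between 113 and 163 kept barcode sequences were shared by any pair of libraries.

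Windows around the start sites of these genes were read for the letters that NF-κB binds, since feedback through its own genes is a known property of the pathway. RefSeq start sites on GRCm38.p6 were available here for 8 of the 10 genes, in 13 windows that ran from 250 bases before to 20 bases after a start. The 10-base κB consensus was searched on both strands. It was found for 7 of the 8 genes (all but Rela), against 4.71% of 27025 genes with such windows. A match is a run of letters and no evidence of binding. The 5 windows below are shown because the treatment results turn on Nfkbia, Rel, Bcl3 and Tnfaip3, and because Rela was the gene without a match. Each is written 5′ to 3′ on the strand of the gene, and capitals mark the bases of κB matches, which overlap one another in Rel.
Nfkbia: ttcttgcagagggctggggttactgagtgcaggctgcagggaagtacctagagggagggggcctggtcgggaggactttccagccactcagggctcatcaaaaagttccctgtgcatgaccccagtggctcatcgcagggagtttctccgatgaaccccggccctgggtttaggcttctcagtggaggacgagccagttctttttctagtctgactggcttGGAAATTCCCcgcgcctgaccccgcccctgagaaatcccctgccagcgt
Rel: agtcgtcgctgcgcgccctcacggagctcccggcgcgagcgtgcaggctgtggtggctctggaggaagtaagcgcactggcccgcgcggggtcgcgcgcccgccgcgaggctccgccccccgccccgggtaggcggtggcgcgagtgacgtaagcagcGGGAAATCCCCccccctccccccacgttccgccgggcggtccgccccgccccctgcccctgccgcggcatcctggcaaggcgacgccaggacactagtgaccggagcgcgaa
Bcl3: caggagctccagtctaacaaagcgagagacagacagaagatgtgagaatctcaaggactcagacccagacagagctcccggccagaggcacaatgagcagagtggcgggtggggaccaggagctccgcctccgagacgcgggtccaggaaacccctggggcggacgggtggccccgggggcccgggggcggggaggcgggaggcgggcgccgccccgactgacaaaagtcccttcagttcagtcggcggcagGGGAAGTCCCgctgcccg
Tnfaip3: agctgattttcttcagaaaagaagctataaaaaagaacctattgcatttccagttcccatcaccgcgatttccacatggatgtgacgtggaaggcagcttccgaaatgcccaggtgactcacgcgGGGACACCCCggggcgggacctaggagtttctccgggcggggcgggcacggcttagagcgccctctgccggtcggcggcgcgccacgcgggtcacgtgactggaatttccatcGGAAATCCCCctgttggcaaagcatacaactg
Rela: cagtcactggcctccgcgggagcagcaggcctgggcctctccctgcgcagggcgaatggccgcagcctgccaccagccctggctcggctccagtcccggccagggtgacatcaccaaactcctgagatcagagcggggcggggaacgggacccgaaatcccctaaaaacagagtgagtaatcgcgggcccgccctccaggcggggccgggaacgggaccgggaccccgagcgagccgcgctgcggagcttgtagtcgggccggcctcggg

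The windows lay at chr12:55492628-55492897 (minus strand) for Nfkbia, chr11:23770950-23771219 (minus) for Rel, chr7:19822736-19823005 (minus) for Bcl3, chr10:19015391-19015660 (minus) for the upstream of the Tnfaip3 starts and chr19:5637291-5637560 (plus) for Rela. The match of Nfkbia lay at bases -29 to -20 from the start and that of Rel at -92 to -82. That of Bcl3 was inside the transcript, at bases 3 to 12, where its first exon begins. Tnfaip3 held a match at -125 to -116 and another at -12 to -3, and between bases -136 and -130 it also held the AP-1 letters TGANTCA. Those letters occurred in 3 of the 8 genes (Nfkb2, Nfkbie and Tnfaip3), against 8.35% of all genes. The letters GAAANNGAAA, part of the element that interferon-activated factors bind, occurred in 0 of the 8, against 3.72% of all genes.

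**Figure D1:**
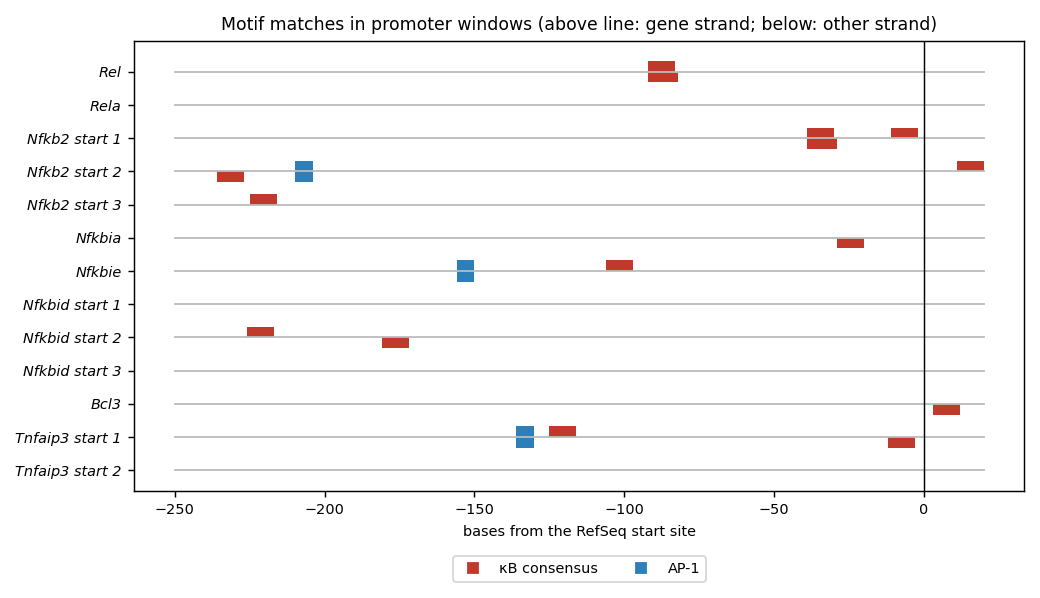
Positions of motif matches in promoter windows of 8 NF-κB genes, in bases from the RefSeq start site (x axis), with 1 line per window and matches on the strand of the gene above the line and on the other strand below it. Red blocks mark the κB consensus, present in 7 of 8 genes, and blue blocks the AP-1 letters, present in 3 of 8.

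RT + αPD-L1 was set against Control to ask what the full combination did to the pathway. Nfkbia and Rel were lower after the combination, each to about 0.81 to 0.82 of its Control level, and Bcl3 was higher, mainly in 1 mouse. The remaining 7 genes, the factors Rela, Relb, Nfkb1 and Nfkb2 and the inhibitors Nfkbie, Nfkbid and Tnfaip3, did not pass the test. Of the 10 genes 3 were called (1 higher and 2 lower), against 9.08% of all 11974 genes tested (6.05% higher and 3.03% lower). The median log2 fold change was -0.05 over the 10 genes and -0.01 over all genes. Calls are adjusted p under 0.05 in edgeR's quasi-likelihood test, two-sided, on counts summed per mouse, adjusted over all genes tested.

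Nfkbia encodes IκBα, the inhibitor that is degraded and then resynthesized when the pathway is switched on. It had 493.2, 486.5, 422.0, 462.2 and 466.2 CPM in the RT + αPD-L1 mice, against 580.0, 649.8, 575.3, 536.0 and 537.4 CPM in the Control mice. Every combination mouse lay below every Control mouse. Over all genes, 5.22% separated the groups in this way, and among the 10 genes only Nfkbia did. The fitted log2 fold change was -0.30 ± 0.06 (SE), or 0.814-fold, with an adjusted p of 0.00344 in edgeR.

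Rel encodes c-Rel, the factor most closely tied to lymphocyte activation. It had 105.1, 82.6, 84.6, 97.9 and 92.5 CPM in the RT + αPD-L1 mice, against 114.8, 119.8, 117.2, 112.1 and 102.1 CPM in the Control mice. All combination mice were below the Control median, and the groups overlapped only through combination mouse 1 and Control mouse 5. The log2 fold change was -0.30 ± 0.05 (SE), with an adjusted p of 0.00221 in edgeR. Both calls were kept in 28 of 28 other settings, over which the change ran between -0.33 and -0.25 for Nfkbia and between -0.33 and -0.27 for Rel.

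Bcl3 is a nuclear IκB protein that joins dimers of the Nfkb1 and Nfkb2 products on DNA. It had 22.1, 30.9, 85.0, 20.1 and 21.9 CPM in the RT + αPD-L1 mice, against 18.7, 21.0, 26.3, 18.3 and 19.6 CPM in the Control mice. Mouse 3, the mouse with most cells, stood far above the other combination mice. Mouse 2 also lay above every Control mouse, and mice 1, 4 and 5 lay within the Control range. The log2 fold change was 0.96 ± 0.29 (SE), with an adjusted p of 0.0412 in edgeR. Without mouse 3 it was 0.24, with an adjusted p of 0.365. The call was lost in 13 of 28 other settings, 9 of them with a single mouse left out. Other measures were also highest in mouse 3 of the combination mice. Effector markers summed to 1399, 1646, 3415, 1354 and 1365 CPM in combination mice 1 to 5, against 818.7 to 1157 CPM in Control mice. Cluster 12, led by Gzma, Gzmb and Klrg1, made up 8.25% of the cells of mouse 3 and at most 1.05% in the other combination mice, against at most 0.669% in Control mice. Markers of stem-like cells with Ly6a summed to 1070, 1986, 3178, 1613 and 1330 CPM in the combination mice and 950.4 to 1170 CPM in Control mice. The 19 interferon-stimulated genes summed to 1083, 4425, 5501, 2131 and 2194 CPM in the combination mice and 765.4 to 1530 CPM in the Control mice. Mice 2, 4 and 5 were above the Control range in this sum and held 30.9, 20.1 and 21.9 CPM of Bcl3. The part of these differences in the Bcl3 value was not tested.

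Tnfaip3 encodes A20, which removes activating ubiquitin chains upstream of NF-κB. It had 204.5, 178.8, 177.2, 218.5 and 224.7 CPM in the RT + αPD-L1 mice, against 241.9, 236.5, 236.5, 209.9 and 212.7 CPM in the Control mice. The combination mice were all below the Control median, but the change (log2 -0.18 ± 0.07, SE) did not pass, with an adjusted p of 0.118 in edgeR. Nfkbie, the inhibitor IκBε, averaged 27.3 ± 1.2 CPM in combination mice and 24.8 ± 1.8 CPM in Control mice (SD, n = 5 each), with all 5 combination mice above the Control median and an adjusted p of 0.136 in edgeR. Nfkbid, a nuclear IκB protein induced by antigen receptor signals in T cells, averaged 29.2 ± 1.5 and 31.0 ± 2.7 CPM in the same groups, with an adjusted p of 0.626. None of these inhibitors passed after adjustment over all genes tested. Their unadjusted p-values in edgeR were 0.0181 (Tnfaip3), 0.0231 (Nfkbie) and 0.351 (Nfkbid).

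The other factors gave small estimates. Rela, the main partner in the classical dimer, averaged 65.9 ± 3.1 CPM in RT + αPD-L1 mice and 67.8 ± 1.9 CPM in Control mice (SD, n = 5 each), a log2 change of -0.03 ± 0.04 (SE). Nfkb1, the precursor of the other classical subunit, averaged 92.2 ± 7.5 CPM in combination mice and 92.3 ± 1.9 CPM in Control mice. Relb and Nfkb2, which form the dimer of the alternative pathway, had log2 changes of 0.06 ± 0.07 and -0.07 ± 0.08 (SE). Adjusted p-values of these 4 factors lay between 0.645 and 0.953 in edgeR.

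**Figure D2:**
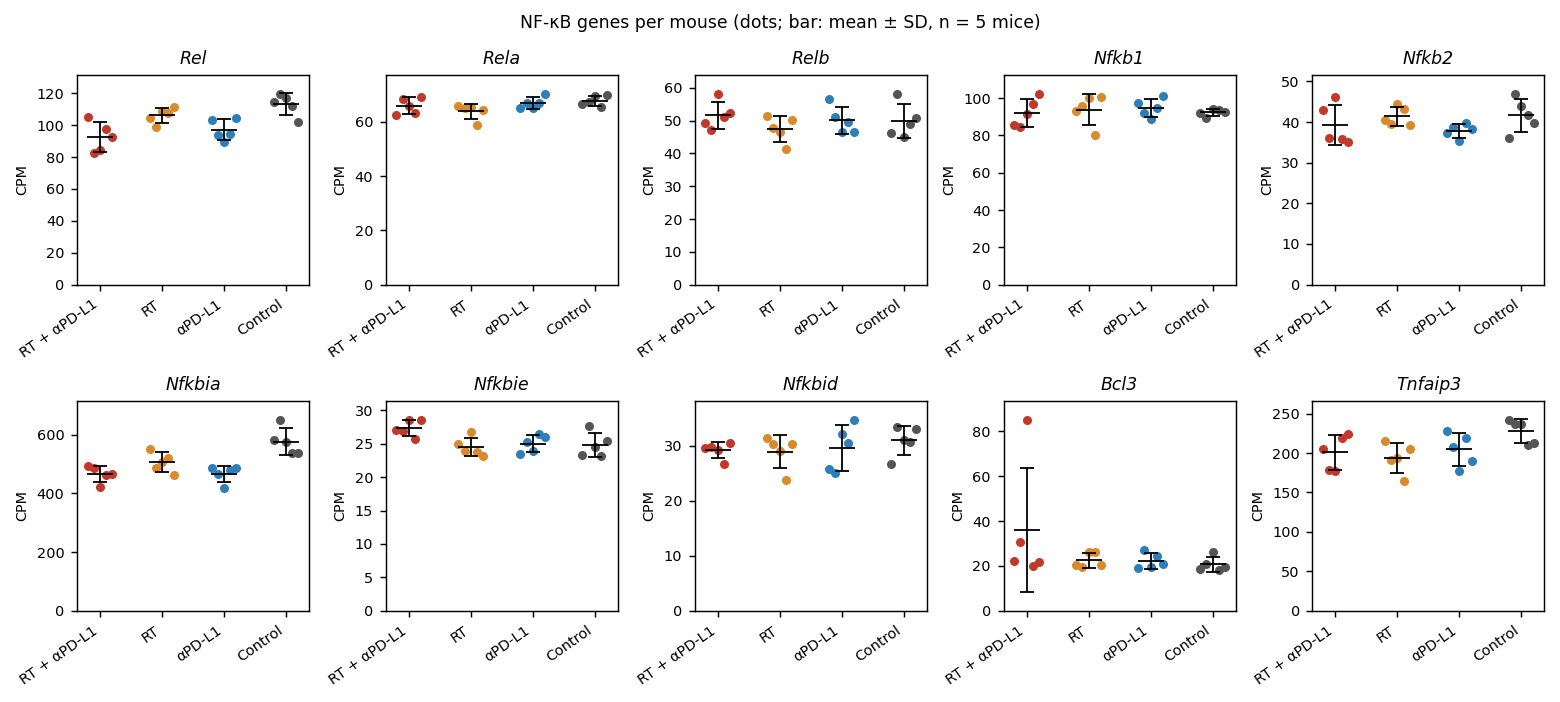
Level of each NF-κB gene in CPM (y axis, from 0) in every mouse (dots) of the 4 treatment groups (x axis), with the mean ± SD of 5 mice. Nfkbia lies lower in all 5 RT + αPD-L1 mice than in all 5 Control mice, and 1 RT + αPD-L1 mouse holds 85.0 CPM of Bcl3.

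The single treatments were compared with the same Control mice, so these comparisons are not independent of the one above. After αPD-L1 alone Nfkbia was lower, with 485.1, 464.9, 419.0, 478.6 and 486.0 CPM in αPD-L1 mice against 536.0 to 649.8 CPM in Control mice. The groups did not overlap, and the share of all genes that separated αPD-L1 from Control in this way was not counted. The log2 fold change was -0.30 ± 0.06 (SE), with an adjusted p of 0.0251 in edgeR, and Nfkbia was the only 1 of the 10 genes called, against 0.418% of all genes (0.225% lower). The adjusted p of Nfkbia ran between 0.000694 and 0.0817 over 28 other settings, and the call was lost with HTODemux at margin 1 and without αPD-L1 mouse 3, Control mouse 1 or Control mouse 2.

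Rel after αPD-L1 had 103.2, 93.9, 89.2, 94.7 and 104.4 CPM, against 102.1 to 119.8 CPM in Control mice. Its log2 fold change was -0.22 ± 0.05 (SE), with an adjusted p of 0.0637 in edgeR, which missed the threshold and passed it in 8 of 28 other settings. The other 8 genes had log2 changes between -0.15 (Tnfaip3) and 0.14 (Bcl3).

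After RT alone 0 of the 10 genes were called in edgeR, against 0.0919% of all genes. Nfkbia had 551.6, 486.9, 507.1, 520.3 and 462.0 CPM in RT mice, against 536.0 to 649.8 CPM in Control mice. RT mouse 1 lay within the Control range and the other RT mice lay below it. The log2 fold change was -0.18 ± 0.06 (SE), with an adjusted p of 0.281. Tnfaip3 averaged 194.1 ± 19.1 CPM in RT mice and 227.5 ± 15.01 CPM in Control mice (SD, n = 5 each), a log2 change of -0.21 ± 0.07 (SE) with an adjusted p of 0.324 in edgeR. DESeq2 also called 0 of the 10.

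**Figure D3:**
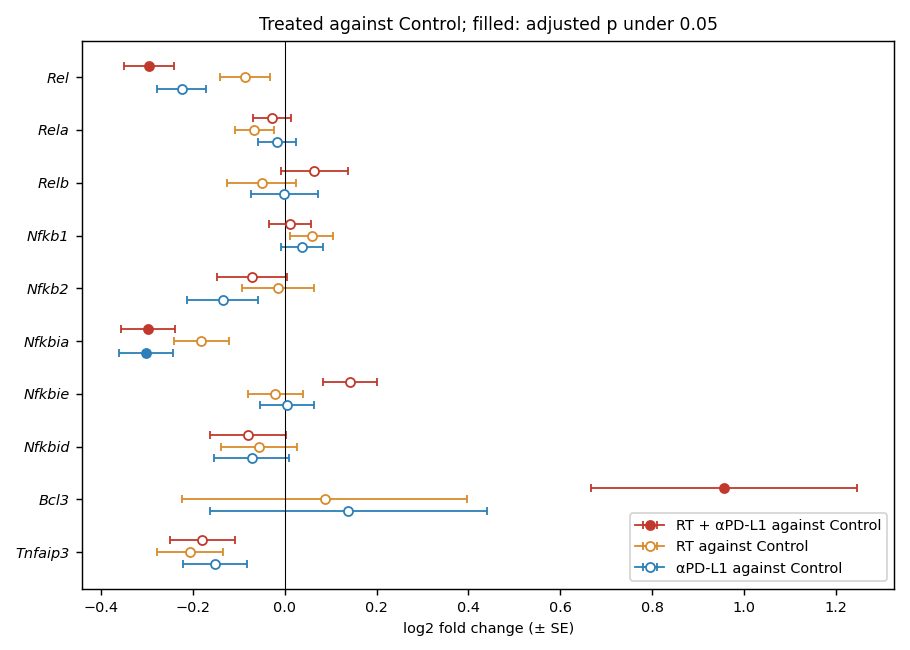
Fitted log2 fold change (x axis, ± SE) of each NF-κB gene (y axis) in RT + αPD-L1 (red), RT (orange) and αPD-L1 (blue) mice against the same 5 Control mice, filled where the adjusted p was under 0.05. Nfkbia is at -0.30 in the combination and in αPD-L1, and Bcl3 at 0.96 in the combination has the widest error of the 10 genes in that comparison.

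The combination was also set against each single treatment, to ask what the second treatment added. Against RT only Rel was called, with 92.5 ± 9.3 CPM in RT + αPD-L1 mice and 106.2 ± 4.8 CPM in RT mice (SD, n = 5 each). The log2 fold change of Rel was -0.21 ± 0.06 (SE), with an adjusted p of 0.0384 in edgeR, against 3.12% of all genes called (0.601% lower). This call rested on a narrow margin and was kept in 10 of 28 other settings, with adjusted p-values between 0.00846 and 0.347. Against αPD-L1 edgeR called 0 of the 10, against 2.43% of all genes.

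Whether the single treatments added up to the combination on the log2 scale was read from an interaction term. In edgeR the term was called for 0 of the 10 genes, against 0.952% of all genes. For Nfkbia the term was 0.18 ± 0.08 (SE), with an adjusted p of 0.39 in edgeR. DESeq2 called 0 of the 10 in either of these last comparisons.

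Sums over the cells of a mouse cannot tell fewer cells of a type from less RNA per cell, so the combination was compared with Control within clusters as well. The clusters were built without the 10 genes and without the other NF-κB genes listed below. Cluster 1 was led by H2-Oa, Myb and Sox4, cluster 2 by Igfbp4, Ccr9 and Klf2, cluster 3 by the interferon-stimulated genes Ifit3b, Ifit3 and Ifit1, cluster 4 by Ccr10, S100a4 and S100a6, and cluster 5 by Srm, Xcl1 and Tnfrsf9. Cluster 6, led by Gpm6b, Tnfrsf4 and Nrn1, had the highest Nfkbia level of the T cell clusters and made up 2.0% to 8.48% of the cells of RT + αPD-L1 mice, against 6.24% to 17.3% in Control mice.

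Nfkbia was called lower after RT + αPD-L1 in 4 of these first 5 clusters. With cells assigned by HTODemux at margin 1 it was called in 2 of them (clusters 1 and 4). It had a negative estimate in each of the 5 clusters in both. In cluster 1 it had 521.1, 528.1, 518.4, 506.0 and 529.6 CPM in combination mice, against 666.2, 700.8, 604.5, 575.7 and 577.4 CPM in Control mice. The groups did not overlap there, and the same was true of clusters 3, 4 and 5. The share of all genes that separated the groups in this way within a cluster was not counted, for Nfkbia or for the genes below. The log2 fold changes were -0.30, -0.28, -0.41 and -0.38 in clusters 1, 2, 4 and 5 (SE between 0.06 and 0.08), with adjusted p-values of 0.00579, 0.048, 0.000845 and 0.00559 in edgeR. In cluster 3, 4 mice of each group had enough cells. Nfkbia had 474.8 to 533.1 CPM there in combination mice and 589.3 to 683.3 CPM in Control mice. The log2 fold change was -0.38 ± 0.11 (SE), but the adjusted p was 0.175 in edgeR. The call in cluster 2 was lost with DESeq2 (adjusted p = 0.0968) and with HTODemux at margin 2 and margin 1 (0.0861 and 0.226), and the call in cluster 5 at margin 1 (0.0688). Of all genes tested in clusters 1 to 5, 1.27%, 1.45%, 0.0671%, 2.23% and 1.28% were called.

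Rel was called lower in clusters 1 and 4 and was not called in clusters 2, 3 and 5. In cluster 4 it had 58.9, 61.8, 74.1, 79.1 and 79.9 CPM in RT + αPD-L1 mice, against 108.4, 98.6, 98.3, 101.9 and 94.4 CPM in Control mice, with no overlap. The log2 fold change there was -0.53 ± 0.10 (SE), with an adjusted p of 0.00267 in edgeR, and in cluster 1 it was -0.36 ± 0.08 with an adjusted p of 0.0106. In clusters 2, 3 and 5 the estimates were -0.18 ± 0.13, 0.02 ± 0.14 and -0.05 ± 0.08. Neither call of Rel passed with HTODemux at margin 1, where the changes in clusters 1 and 4 were -0.33 and -0.39 with adjusted p-values of 0.24 and 0.191 in edgeR. A difference in the Rel effect between clusters was not tested.

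Tnfaip3 was called in the main fit only in cluster 2, the cluster led by Igfbp4, Ccr9 and Klf2. It had 171.5, 143.3, 155.8, 163.8 and 177.3 CPM in RT + αPD-L1 mice, against 239.5, 191.0, 182.3, 178.8 and 184.2 CPM in Control mice. The groups did not overlap, and the log2 fold change was -0.33 ± 0.08 (SE) with an adjusted p of 0.0228 in edgeR. This call was lost with DESeq2 (adjusted p = 0.0968) and with HTODemux at margin 2 and margin 1 (0.096 and 0.228). In the other 4 clusters its estimates lay between -0.49 and -0.20 and were not called in the main fit. Without the filter on low counts, edgeR also called Tnfaip3 lower in clusters 1, 3 and 5 (adjusted p = 0.0226, 0.04525 and 0.00859). In cluster 3 the groups did not overlap, with 163.8 to 240.2 CPM in combination mice and 243.6 to 294.4 CPM in Control mice. Whether the effect on Tnfaip3 differed between clusters was not tested.

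Bcl3 was called in none of the 5 clusters in the main edgeR fit, with estimates between 0.23 and 1.34 and adjusted p-values between 0.0532 and 0.763. Without the filter on low counts, edgeR called Bcl3 higher in clusters 1, 2, 3 and 5 (adjusted p = 0.00704, 0.0497, 3.37e-06 and 6.05e-09). Without TMM factors it was called in cluster 1 (adjusted p = 0.0418). In cluster 3 its 4 combination mice had 35.03, 98.5, 18.4 and 18.8 CPM, against 24.3, 22.3, 25.9 and 17.0 CPM in 4 Control mice. The high value was again that of mouse 3. Mouse 3 was also the highest of the combination mice in 9 of the 12 T cell clusters, including cluster 5 with 71.7 CPM, where the other combination mice held 8.80 to 19.3 CPM. In cluster 1, mouse 1 was highest with 48.1 CPM. In all, 7 of the 50 pairs of gene and cluster were called in the main fit, all of them lower and all from Nfkbia, Rel or Tnfaip3.

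**Figure D4:**
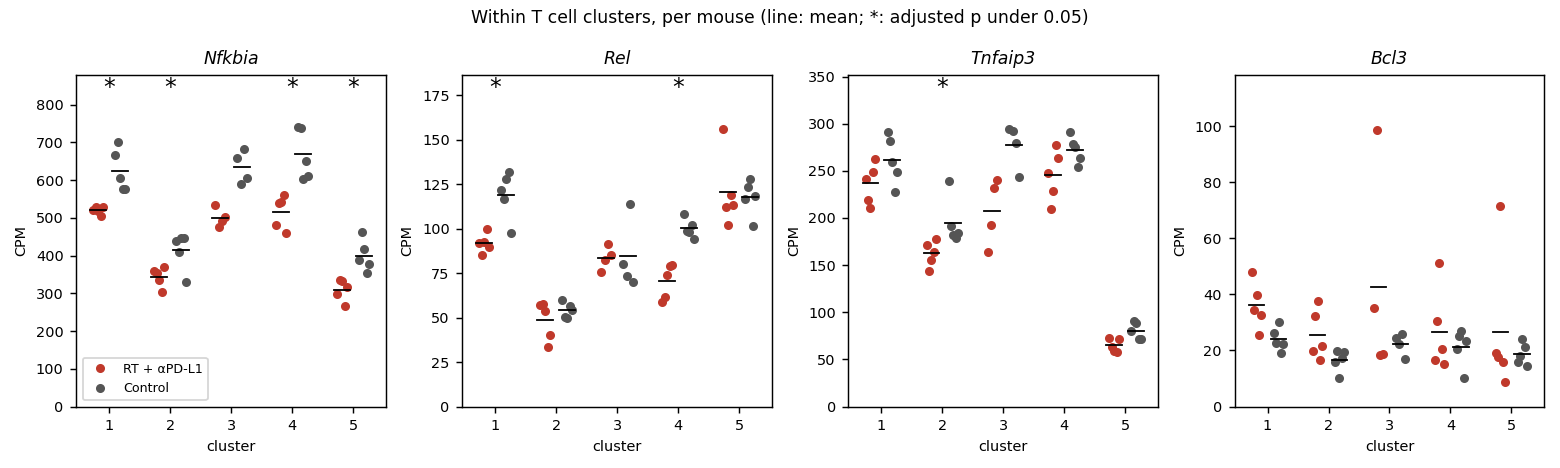
CPM (y axis, from 0) of Nfkbia, Rel, Tnfaip3 and Bcl3 per mouse within the 5 largest T cell clusters (x axis), RT + αPD-L1 mice (red) left of Control mice (grey), with the mean as a line and an asterisk where the adjusted p was under 0.05. Asterisks stand over Nfkbia in clusters 1, 2, 4 and 5, over Rel in clusters 1 and 4 and over Tnfaip3 in cluster 2.

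The 10 genes were also read across the 12 T cell clusters. These levels are means over mice with at least 20 cells of a cluster and are a description, with no test. Clusters are said not to differ beyond their spread where their means lay no further apart than the larger of their SDs over mice. This rule does not show that the levels are equal. Nfkbia was highest in cluster 6, at 824.3 ± 111.9 CPM (SD, n = 19 mice), and lowest in cluster 12, led by Gzma, Gzmb and Klrg1, at 350.8 ± 89.7 CPM (n = 6). Cluster 5, the cluster of Xcl1 and Tnfrsf9, was close to the bottom with 360.0 ± 46.3 CPM (n = 19). Clusters 1, 4 and 3 followed cluster 6 at between 565.7 and 572.4 CPM and did not differ beyond their spread.

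Nfkbid and Relb shared the top position of Nfkbia in cluster 6 at the clustering resolution used. With finer clusters (Leiden resolution 1.0) Nfkbid was highest in the cluster led by Srm and Xcl1 and Relb in that led by Gm26917 and Lncpint. Nfkbid had 84.6 ± 27.6 CPM in cluster 6 (SD, n = 19 mice), followed by cluster 5 with 49.4 ± 11.98 CPM, and 16.0 ± 2.6 CPM in cluster 1 (n = 20), its lowest. Relb had 83.7 ± 16.6 CPM in cluster 6 and 81.6 ± 27.5 CPM in cluster 7 (n = 19 each), which did not differ beyond their spread, and 27.3 ± 11.8 CPM in cluster 12 (n = 6). Outside the T cells Relb was far higher in cluster 16, a dendritic marker cluster led by Fscn1, with 462.3 and 648.9 CPM in the 2 mice that had enough of these cells. Alternative NF-κB signals through Relb are known for their part in dendritic cells.

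For 6 genes (Rel, Nfkb1, Tnfaip3, Nfkbie, Nfkb2 and Rela) the highest T cell cluster was cluster 7. This cluster was led by the nuclear RNAs Gm26917, Kcnq1ot1 and Lncpint and by Malt1, and its cells held a median of only 1706 UMIs, against 5027 to 17079 in the other T cell clusters. Tnfaip3 reached 1458 ± 203.5 CPM there (SD, n = 19 mice), 19.9 times its level in cluster 5 (73.1 ± 12.9 CPM, n = 19). Rel had 435.7 ± 91.5 CPM in cluster 7, then 199.1 ± 20.6 CPM in cluster 6 and 115.4 ± 13.1 CPM in cluster 5 (n = 19 each), and it was lowest in cluster 2 at 50.5 ± 8.7 CPM (n = 20). The part of the low depth of cluster 7 in these levels was not tested. After it came cluster 6 for Rel, Nfkbie, Nfkb2 and Rela, cluster 5 for Nfkb1 and cluster 9, led by Il10ra and Gzmk, for Tnfaip3. For Nfkbie, Nfkb2 and Rela, clusters 7 and 6 did not differ beyond their spread by the rule above. The means of Nfkbie were still far apart, at 76.2 ± 38.6 CPM in cluster 7 and 40.2 ± 8.4 CPM in cluster 6 (SD, n = 19 each).

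Rela was the flattest of the 10 genes, with its highest cluster 1.54 times its lowest and every pair of neighbors in the order within their spread. Nfkb1 had 390.3 ± 60.4 CPM in cluster 7, then 121.5 ± 14.4 CPM in cluster 5 and 117.8 ± 14.5 CPM in cluster 6 (SD, n = 19 each), and 69.2 ± 13.4 CPM in cluster 12 (n = 6). Bcl3 was highest in cluster 12 (45.3 ± 43.3 CPM, n = 6) and cluster 3 (35.7 ± 24.2 CPM, n = 15), but neighbors in its order did not differ beyond their spread. The level in cluster 12 rested on 1 mouse, RT + αPD-L1 mouse 3 with 133.1 CPM, without which the mean was 27.8 CPM. Cluster 3 without its highest mouse held 31.2 CPM, and cluster 1 held 29.9 CPM over all its mice. Clusters 12 and 3 held mostly cells of RT + αPD-L1 mice.

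**Figure D5:**
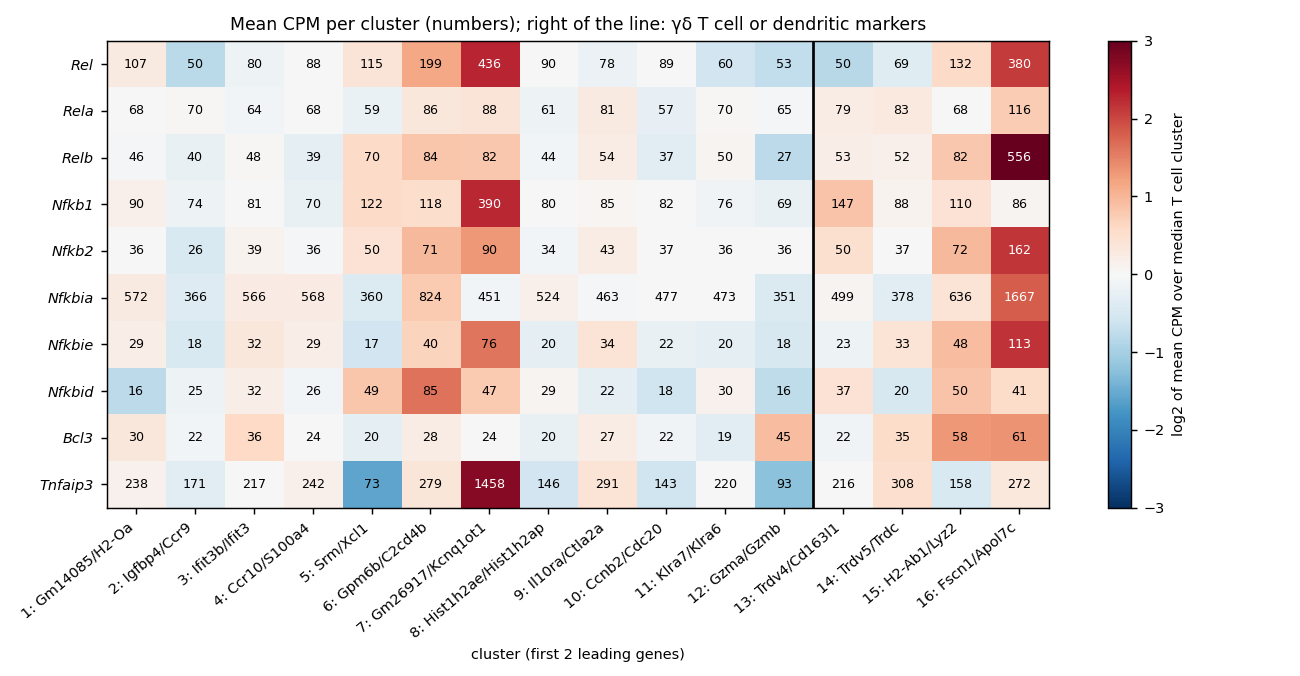
Mean CPM over mice (numbers) of each NF-κB gene (rows) in 16 clusters (columns), colored by the log2 of the mean over the median T cell cluster, with the γδ and dendritic marker clusters right of the line. Cluster 6 is highest among T cells for Nfkbia at 824 CPM, and Relb is highest in cluster 16 at 556 CPM.

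The genes whose pattern was most like that of each NF-κB gene were sought over 48 sums of cells (12 T cell clusters in each of 4 libraries), among 6057 genes. These correlations are a description, the sums share libraries and depth, and no p is given. Nfkbia was most like Dusp1, an immediate early phosphatase (Pearson r = 0.84), Nfkbid like the antigen-induced receptor Nr4a1 (r = 0.82) and Relb like its relative Nr4a3 (r = 0.82). Bcl3 was most like the interferon-stimulated genes Usp18 (r = 0.79) and Oas1a (r = 0.79). These sums pool the mice of a library, and mouse 3 held 3220 of the 4092 Bcl3 UMIs of the RT + αPD-L1 library. The part of this mouse in the likeness of Bcl3 was not tested. For Tnfaip3 the closest was mt-Co1, a mitochondrial transcript (r = 0.98).

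Without the sums of cluster 7, a choice made after seeing the data, Nfkbia, Nfkbid, Relb and Tnfaip3 kept the same closest gene over 44 sums. Rel was then most like Cd200 (r = 0.93) and Cd83 (r = 0.93), where with cluster 7 it had been Kdm2b (r = 0.95). Bcl3 was then closest to Isg15 (r = 0.80). Among the 10 genes themselves, with cluster 7 included, Rel and Nfkb1 (r = 0.87) and Nfkbie and Tnfaip3 (r = 0.87) were the most alike. Without cluster 7 these pairs had an r of 0.68 and 0.72, and the most alike were Nfkb2 and Relb (r = 0.79) and Nfkb2 and Rel (r = 0.76). Bcl3 had an r of 0.30 or less with each of the others with cluster 7, and of 0.37 or less without it.

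The rest of the pathway was read from fixed lists of receptors, kinases, inhibitors and targets, again in RT + αPD-L1 against Control, where 6.05% of all genes were higher and 3.03% lower. Of 15 receptors and ligands tested, 0 were higher and 2 were lower in edgeR: Lta, lymphotoxin α, had 22.1 ± 5.9 CPM in combination mice and 30.5 ± 4.0 CPM in Control mice (SD, n = 5 each), and Tnfsf11, the ligand RANKL, had 15.3 ± 6.4 and 23.9 ± 7.3 CPM. Their log2 fold changes were -0.54 ± 0.13 (SE, adjusted p = 0.0148) and -0.74 ± 0.21 (SE, adjusted p = 0.029). The median over this list was 0.00 on the log2 scale, close to that of all genes.

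Of 26 adaptors and kinases, 4 were higher and 1 was lower. Prkcq, protein kinase C θ, which links the antigen receptor to NF-κB, had 190.4 ± 12.9 CPM in RT + αPD-L1 mice and 160.8 ± 6.5 CPM in Control mice (SD, n = 5 each), a log2 change of 0.26 ± 0.05 (SE, adjusted p = 0.00325 in edgeR). Tab2, an adaptor of the kinase Map3k7, was higher by 0.20 ± 0.06 (SE) on the log2 scale and Ripk1, a kinase of TNF receptor signaling, by 0.32 ± 0.08. Tab1, another partner of Map3k7, was lower, with a log2 change of -0.47 ± 0.11. The list median was 0.07.

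Of 15 other inhibitors 1 was higher, N4bp1, with 26.5 ± 7.5 CPM in RT + αPD-L1 mice and 19.3 ± 1.3 CPM in Control mice (SD, n = 5 each; log2 0.55 ± 0.14 SE, adjusted p = 0.0153 in edgeR). Of 20 targets tested, 3 were higher and 1 was lower, with a list median of 0.02. The chemokine Cxcl10, which interferon also induces, had 43.1 ± 37.2 CPM in combination mice and 18.7 ± 5.3 CPM in Control mice, the adhesion molecule Icam1 47.6 ± 11.0 and 37.2 ± 3.7 CPM, and the early response gene Ier3 9.20 ± 3.04 and 5.54 ± 0.85 CPM. Cd83, an activation marker, was lower, with 19.9 ± 6.2 CPM in combination mice and 29.96 ± 6.35 CPM in Control mice (log2 -0.69 ± 0.18 SE, adjusted p = 0.0203). The target list therefore did not move in a single direction.

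Against the single treatments the lists held few calls. Rbck1, a subunit of the ubiquitin ligase complex that feeds into NF-κB, averaged 130.9 ± 3.9 CPM in RT + αPD-L1 mice, 112.5 ± 4.0 CPM in RT mice, 115.3 ± 5.6 CPM in αPD-L1 mice and 121.9 ± 4.2 CPM in Control mice (SD, n = 5 each). It was called against RT (log2 0.22 ± 0.05 SE, adjusted p = 0.00976 in edgeR), against αPD-L1 (0.19 ± 0.05, adjusted p = 0.0213) and in the interaction term (0.29 ± 0.07, adjusted p = 0.0337), but not against Control. The comparisons of RT and αPD-L1 with Control called 0 genes of these 4 lists.

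Levels of other gene sets stood beside these results. The 20 immediate early genes, which stimulation and handling of cells can induce, summed to 4515 to 5544 CPM in RT + αPD-L1 mice and 5424 to 5910 CPM in Control mice, with 2 of the 20 called lower (Dusp1 and Nr4a2) and a median log2 change of -0.17. Markers of exhausted progenitor cells (6 genes) summed to 839.9 to 1079 CPM in combination mice and 1137 to 1267 CPM in Control mice. Dendritic markers (11 genes) summed to 418.3 to 532.2 CPM and 466.8 to 583.0 CPM in the same groups. The largest part of this sum was Ccr7, at 252.5 to 350.6 CPM and 310.9 to 372.2 CPM. Cd74 ran between 53.25 and 88.68 CPM and between 62.69 and 134.1 CPM. Cst3 ran between 84.4 and 98.15 CPM and between 79.11 and 92.61 CPM. H2-Ab1, H2-Eb1 and Fscn1 reached 3.75, 4.62 and 1.715 CPM in combination mice and 2.53, 2.42 and 1.035 CPM in Control mice. Flt3 and Siglech were at or below 0.361 CPM in every mouse, whereas Itgax ran between 1.51 and 8.50 CPM in combination mice and between 0.793 and 1.75 CPM in Control mice, H2-Aa between 1.51 and 6.64 CPM and between 1.57 and 2.99 CPM, and Xcr1 up to 1.48 CPM and up to 0.27 CPM. The part of these markers in the results was not tested. All 19 interferon-stimulated genes tested were higher in the combination mice. The part of the immediate early genes and of the progenitor markers in the lower Nfkbia and Rel was not tested, beyond the values within clusters above.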

How the data were processed

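The files deposited by the authors hold unnormalized UMI counts of genes and hashtags by barcode, made with Cell Ranger (6.1.2 in the file headers) and the mm10 mouse reference, with 4 libraries of 5 hashtagged mice. The 10 genes and all gene lists were chosen with earlier results of these data known.

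Barcodes were kept at 500 to 5000 genes, up to 40000 UMIs and a mitochondrial share below 10%. Each was given to a mouse by 1 positive hashtag (39189 cells), and the 7.46% to 8.85% of barcodes with several hashtags were dropped as doublets, while doublets within a mouse remain. The study's methods name HTODemux, which was an alternative here (30671 cells at margin 2 and 25933 at margin 1, the way its centred log ratios are taken). Clusters came from 2000 variable genes without the NF-κB lists, 20 principal components and Leiden resolution 0.6 (scanpy 1.11.5). A cluster kept its number and leading genes. Clusters with γδ T cell, dendritic or B markers were left out of comparisons.

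Counts were summed per mouse and tested with edgeR (4.0.16, TMM, filterByExpr, quasi-likelihood F test, two-sided, Benjamini-Hochberg over 11974 genes), in 1 fit over 20 mice. The common biological coefficient of variation was 0.0882. CPM are counts scaled to the UMI total of a mouse's compared cells. Standard errors are the log2 change over the root of F. The text names all 10 genes and, per list, genes called in RT + αPD-L1 against Control, of which 1 is not reported here. In simulated counts for RT + αPD-L1 against Control, the test recovered 100 of 100 genes changed by 1 on the log2 scale and 90 of 100 changed by 0.5, with 14 false calls among 11966 genes. The simulation gave every gene the same spread between mice and held no changes as small as those of Nfkbia and Rel. It therefore does not give the recovery for the NF-κB genes. Alternatives were DESeq2, no TMM factors, no filter, both HTODemux assignments, all assigned cells, each mouse left out and, chosen after seeing the data, cells without cluster 7 or without clusters 3 and 12, and cluster means without their highest mouse. The ± values are SDs over mice for CPM and standard errors of the fit for log2 changes. Promoter letters are from RefSeq windows on GRCm38.p6.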

Additional observations from a re-analysis of the deposited data

Results flagged for a closer look

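In 40 groups of 5 mice (10 genes in 4 treatments) a mouse standing far from its group was sought, which chance gives in about 1 of 20 groups, and 2 were found. Bcl3 in RT + αPD-L1 mouse 3 was at 84.98 CPM (3220 UMIs), where the other 4 mice of that group held 20.13 to 30.88 CPM. Rela in RT mouse 4 was at 58.98 CPM, where the other RT mice held 64.23 to 66.05 CPM, and this value rests on 67 UMIs from the mouse with the fewest cells.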

How the results depend on the processing

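Over 28 other settings of the fit, the calls of Nfkbia and Rel in RT + αPD-L1 against Control were kept in all, and the 5 calls of the main comparisons never changed sign. Of the 55 values that were not called, 25 took the other sign in at least 1 setting. In αPD-L1 against Control, 1 gene was called, against 2 with DESeq2, with all assigned cells, without cluster 7 and without clusters 3 and 12, 0 with HTODemux at margin 1, and 0 to 2 with a mouse left out. In RT + αPD-L1 against RT, 1 was called, against 0 without TMM factors, with no filter, with HTODemux at margin 2 or margin 1, with all assigned cells and without clusters 3 and 12, and 0 to 2 with a mouse left out. Within clusters, 7 pairs of gene and cluster were called, against 15 with no filter on low counts, 2 with HTODemux at margin 1 (Nfkbia in clusters 1 and 4), and 5 to 9 with a mouse left out. The 15 included Bcl3 in clusters 1, 2, 3 and 5 and Nfkbid in cluster 5, all of them higher. They also included Tnfaip3 in clusters 1, 3 and 5, where it was lower. Causes were not tested. For Bcl3 in the combination the log2 change was 0.83 with DESeq2 (adjusted p = 0.102), 0.99 and 0.98 with HTODemux at margin 2 and margin 1 (0.0716 and 0.121) and 0.66 without clusters 3 and 12 (0.0792). At Leiden resolution 1.0 the highest cluster of Nfkbia was again led by Gpm6b, Tiam1 and Nrn1, but that of Nfkbid was led by Srm and Xcl1, of Relb by Gm26917, of Nfkb2 by Mki67 and of Bcl3 by Rsad2 and Ifit3b. Depth limits RT mouse 4 most (131 cells). No paired analysis was possible because the labels give no replicate numbers and hashtag numbers mark unrelated mice.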
